A study of Rattus norvegicus with 6 samples.

Results

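The EGR and NR4A activity-induced genes are 9 genes read out here in cultured sensory neurons. The neurons came from dorsal root ganglia, where the cell bodies of touch, pain and position sense lie next to the spinal cord. They were taken by gene name from a table of 56748 mouse Ensembl genes: Egr1, Egr2, Egr3 and Egr4 of the EGR family, Nr4a1, Nr4a2 and Nr4a3 of the NR4A family, and Arc and Npas4. The cultures, labelled as rat, had received extracellular vesicles released by muscle, and their poly(A)-selected RNA was sequenced. That RNA also held markers of glia, fibroblasts and dividing cells, given below, so levels are those of whole cultures and not of neurons alone. The vesicles came from acutely denervated muscle (EVadMu, 3 libraries) or from muscle with its nerve supply intact (EVMu, 3 libraries). The labels give no strain, age, vesicle dose or time of exposure. No library without vesicles is part of the comparison, so which of the groups changed cannot be told apart. The genes were chosen by name with their fold changes between EVadMu and EVMu known. These differences are therefore given as descriptions, and calls are counted only beside the share of all tested genes that were called.

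The genes of this group are silent or low in resting neurons and are transcribed within minutes of calcium entry or growth factor signalling, before any new protein has been made. Kinases downstream of calcium and of receptor tyrosine kinases switch on the factors CREB and SRF, which already sit at the promoters. EGR proteins are zinc finger factors that bind GC-rich sites, and NR4A proteins are orphan nuclear receptors that act without a hormone. ARC is a cytoskeleton-associated effector protein of the synapse, and NPAS4 is a transcription factor tied closely to calcium entry in neurons. Several of the genes also respond to serum, injury and stress in cells other than neurons, and EGR2 directs myelination in Schwann cells.

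Promoter sequences of rat genes (RefSeq, build GRCr8) were matched for 6 of the 9 genes, namely Egr1, Egr2, Egr4, Nr4a1, Nr4a2 and Npas4. Those of Egr2, Egr4 and Nr4a1 are shown because these genes had large differences in opposite directions. Each is the 250 bases upstream of the annotated start, 5′ to 3′ on the strand of the gene. Capitals mark the core of the CREB site (TGACG, or CGTCA on the other strand), the CArG box bound by SRF, and the EGR site (GCGGGGGCG, either strand). Egr2 lies on the minus strand at chr20:21054442-21054691, Egr4 on the minus strand at chr4:119607818-119608067 and Nr4a1 on the plus strand at chr7:134259888-134260137.
Egr2: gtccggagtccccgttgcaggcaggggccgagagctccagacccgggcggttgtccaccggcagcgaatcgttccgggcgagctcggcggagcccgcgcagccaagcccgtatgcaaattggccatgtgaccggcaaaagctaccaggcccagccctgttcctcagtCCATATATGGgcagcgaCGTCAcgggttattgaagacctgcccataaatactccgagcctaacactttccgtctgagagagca
Egr4: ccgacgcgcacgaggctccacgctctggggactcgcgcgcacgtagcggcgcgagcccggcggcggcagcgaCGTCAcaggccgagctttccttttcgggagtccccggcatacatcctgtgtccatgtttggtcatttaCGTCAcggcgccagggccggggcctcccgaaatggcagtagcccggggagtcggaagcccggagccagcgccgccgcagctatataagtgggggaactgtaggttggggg
Nr4a1: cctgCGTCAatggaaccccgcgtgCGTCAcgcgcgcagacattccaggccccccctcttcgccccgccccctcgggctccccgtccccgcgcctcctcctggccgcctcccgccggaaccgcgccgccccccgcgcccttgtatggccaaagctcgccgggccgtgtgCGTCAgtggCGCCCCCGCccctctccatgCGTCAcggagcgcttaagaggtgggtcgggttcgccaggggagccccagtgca

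In the window of 300 bases (250 before to 50 after the start) the CREB core was found on either strand in 5 of the 6 promoters, against 21.2% of 33469 rat promoters. Only 1 annotated start was taken for each of the 6 genes, and whether it is the main start was not checked. Nr4a1 held 4 cores, Egr1 and Egr4 held 2 each, Egr2 and Nr4a2 held 1 each and Npas4 held 0. The core thus stood before genes that were higher in EVadMu (Egr1, Egr4) and before genes that were lower (Egr2, Nr4a1, Nr4a2). A CArG box was present in 2 of the 6, with 2 boxes in Egr1 and 1 in Egr2, against 1.64% of all promoters. The full palindrome TGACGTCA, which contains the core, was in 0 of the 6 (1.83% of all promoters). The EGR site GCGGGGGCG was in 1 of the 6, that of Nr4a1 (2.73%), and its variant GCGTGGGCG in 0 (0.544%). The NR4A monomer site AAAGGTCA was also in 0 of the 6 (1.43%). A match of letters is not a bound site, and the absence of these letters in this window says nothing about the factor.

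Library totals ran from 14853115 to 17019877 counts. The groups differed across most of the transcriptome, with 13597 of 16993 tested genes called in edgeR's quasi-likelihood test at a Benjamini-Hochberg adjusted p of 0.05, and a median log2 fold change of -0.02. Markers of other cells than neurons differed between the same libraries. Schwann and satellite glia markers were lower in EVadMu for 13 of 15 genes and higher for 1, with a summed level of 2164 to 2236 CPM in EVadMu and 5445 to 5718 CPM in EVMu (CPM, reads scaled to a fixed library size). Fibroblast markers were lower for 14 of 15 and higher for 1 (615 to 635 CPM in EVadMu, 7118 to 7198 CPM in EVMu), and proliferation markers were lower for 15 of 15 (36.0 to 38.8 CPM in EVadMu, 1984 to 2035 CPM in EVMu). Endothelial and mural markers were lower for 14 of 15 and higher for 1 (184 to 188 CPM in EVadMu, 888 to 914 CPM in EVMu). Macrophage and leukocyte markers were lower for 11 of 13 tested and higher for 1, Cd68, and their sum was 139 to 144 CPM in EVadMu and 114 to 122 CPM in EVMu. Cd68 alone had 131 CPM in EVadMu and 12.9 CPM in EVMu, so this sum follows 1 gene and not the list. The higher glia marker was Apoe (1072 CPM in EVadMu, 743 CPM in EVMu). The higher fibroblast marker was Thy1 (272 CPM in EVadMu, 253 CPM in EVMu). Both make up a large part of their EVadMu sums. Pan-neuronal markers were lower for 11 of 15 and higher for 2 (4121 to 4230 CPM in EVadMu, 6645 to 6905 CPM in EVMu), and sensory neuron markers were lower for 13 of 14 tested (1302 to 1327 CPM in EVadMu, 2916 to 2930 CPM in EVMu). None of the listed markers in the table was at 0 in all libraries of a group. In RNA from whole cultures, fewer cells of a type and less RNA per cell cannot be told apart, and the part of these markers in the results on the EGR and NR4A genes was not tested.

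Both families were split between the groups. Of the 9 genes, 8 passed the filter on low counts and 8 of these were called, against 80.0% of all tested genes. Egr4, Nr4a3 and Egr1 were higher in EVadMu (3 of 8, against 39.2% of all tested genes), and Egr2, Egr3, Nr4a1, Arc and Nr4a2 were lower (5 of 8, against 40.8%). Changes of at least 2-fold were found for 5 genes (41.1% of all tested genes), 2 higher (17.6%) and 3 lower (23.5%). The libraries of the groups did not overlap for 8 of the 8 (80.7% of all tested genes), 3 with EVadMu above EVMu (39.4%) and 5 with EVadMu below EVMu (41.4%). Since these differences were known when the genes were selected, nothing is read from these counts.

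**Figure D1:**
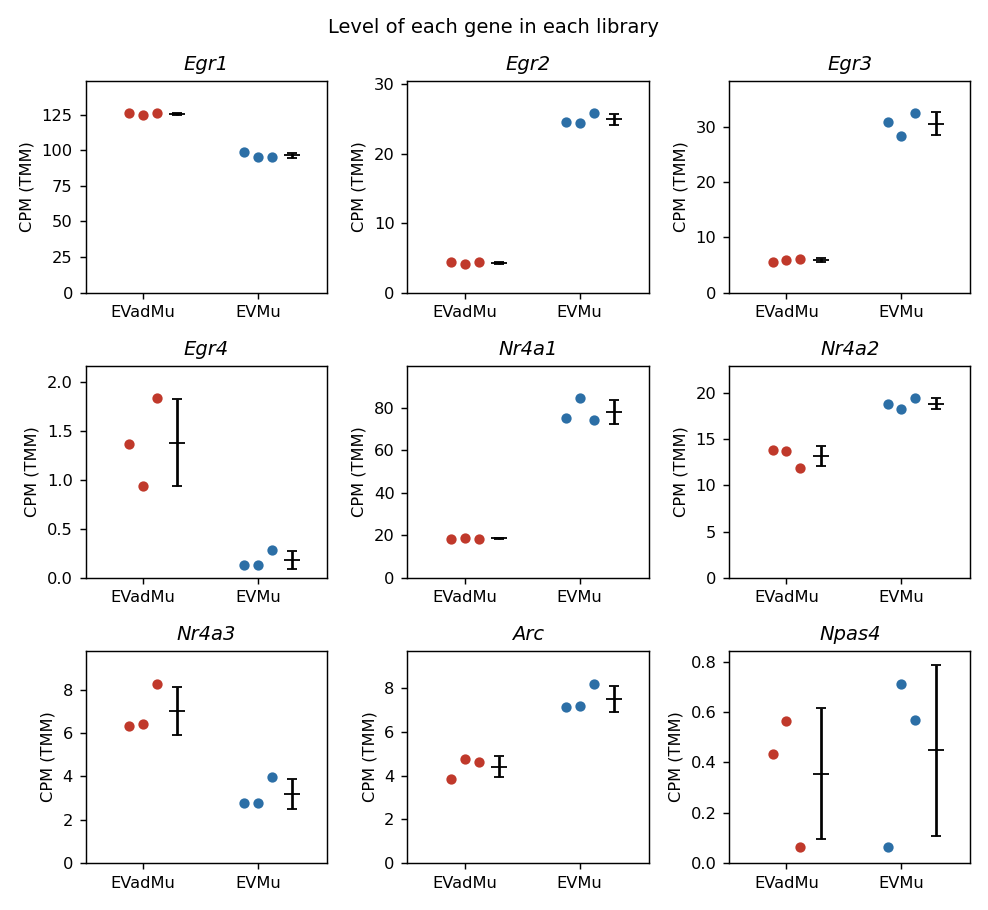
Level of each of the 9 genes in CPM (TMM-scaled), with 1 point per library, EVadMu in red on the left and EVMu in blue on the right of each panel, and a black bar for the mean ± SD of 3 libraries. Each panel has its own axis from 0. Points of the groups lie apart for every gene except Npas4, whose libraries run from 0.0632 to 0.566 CPM in EVadMu and from 0.0644 to 0.713 CPM in EVMu.

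Egr1, the zinc finger factor induced by serum and injury in most cell types, had the smallest difference of the EGR family. It had 126, 124 and 126 CPM in EVadMu libraries 1 to 3, against 98.5, 95.6 and 95.1 CPM in EVMu libraries 1 to 3. The EVadMu libraries lay above all EVMu libraries. The log2 fold change was 0.38 ± 0.043 (SE), a 1.30-fold rise, and 64.0% of all tested genes had a lower log2 fold change.

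Egr2, the Schwann cell myelination factor also known as Krox20, went the other way. It had 4.40, 4.09 and 4.36 CPM in EVadMu, against 24.6, 24.4 and 25.8 CPM in EVMu. Every EVadMu library was far below every EVMu library, and the log2 fold change was -2.54 ± 0.12 (SE). This was the lowest value among the 8 tested genes, with 6.79% of all tested genes lower still.

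Egr3, which in mice is needed for muscle spindle development, fell by nearly the same amount. Its levels were 5.52, 5.98 and 6.13 CPM in EVadMu, against 30.9, 28.4 and 32.5 CPM in EVMu. The groups did not overlap, and the log2 fold change was -2.38 ± 0.11. Within single libraries the ratio of Egr3 to Egr2 counts was 1.25 to 1.46 in EVadMu and 1.16 to 1.26 in EVMu. These ranges overlapped, so the falls of Egr2 and Egr3 could not be ranked beyond the spread between libraries.

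Egr4, the least counted EGR gene and best known from the nervous system and testis, had the largest rise. Its counts were 22, 15 and 29 in EVadMu, against 2, 2 and 5 in EVMu, or 1.36, 0.943 and 1.83 CPM against 0.129, 0.130 and 0.283 CPM. All EVadMu libraries lay above all EVMu libraries, but the size of the rise rests on 9 counts over the EVMu group. The ratio was 7.45 (95% counting interval 3.70 to 17.0, counting error only), and the fitted log2 fold change was 2.85 ± 0.52 (SE).

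Nr4a1, also called Nur77 and the most counted gene of its family in both groups, fell. It had 18.4, 18.8 and 18.3 CPM in EVadMu, against 75.2, 84.3 and 74.0 CPM in EVMu. The EVadMu libraries were far below the EVMu libraries, with a log2 fold change of -2.07 ± 0.067. They were also closer together than counting error gives (SD 1.48% of the mean, against 5.82% from counting), so this closeness is not read as precision. In EVMu the SD was 7.18% of the mean, against 2.82% from counting. The drop in Nr4a1 was a little smaller than that of Egr3. In single libraries Nr4a1 had 2.98 to 3.34 counts per Egr3 count in EVadMu and 2.28 to 2.97 in EVMu, so these ratios lay apart by a narrow margin.

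Nr4a2, or Nurr1, a factor needed by midbrain dopamine neurons, fell by less. Its levels were 13.8, 13.6 and 11.9 CPM in EVadMu, against 18.8, 18.2 and 19.4 CPM in EVMu. The groups did not overlap, and the log2 fold change was -0.52 ± 0.10. EVadMu library 3 was the lowest of the 6.

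Nr4a3, or NOR-1, was the NR4A gene that rose. It had 6.33, 6.42 and 8.28 CPM in EVadMu, against 2.77, 2.79 and 3.97 CPM in EVMu. Library 3 was the highest of its group on both sides, and the lowest EVadMu value still exceeded the highest EVMu value. The log2 fold change was 1.13 ± 0.19, with 85.1% of all tested genes lower.

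Arc, whose protein regulates the removal of AMPA receptors from synapses, fell moderately. Its levels were 3.84, 4.78 and 4.62 CPM in EVadMu, against 7.15, 7.20 and 8.21 CPM in EVMu. The groups lay apart, with a log2 fold change of -0.77 ± 0.17. Set against Nr4a2, the neighbouring gene by size of difference, the ranges of the within-library ratio overlapped. Nr4a2 had 2.58 to 3.60 counts per Arc count in EVadMu and 2.36 to 2.63 in EVMu.

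Npas4, the neuronal calcium-responsive factor, was close to the limit of detection. It had 7, 9 and 1 counts in EVadMu and 1, 11 and 10 counts in EVMu, and did not pass the filter on low counts. The groups overlapped, and the ratio of 0.785 had a 95% counting interval of 0.391 to 1.55. The libraries also spread more than counting alone gives. The SD was 73.5% of the mean in EVadMu and 75.9% in EVMu, against 42.0% and 36.9% from counting error. The interval leaves this extra spread out and is too narrow. A difference of the size seen for Nr4a2 (ratio 0.697) lies inside it and could not be told from no difference.

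**Figure D2:**
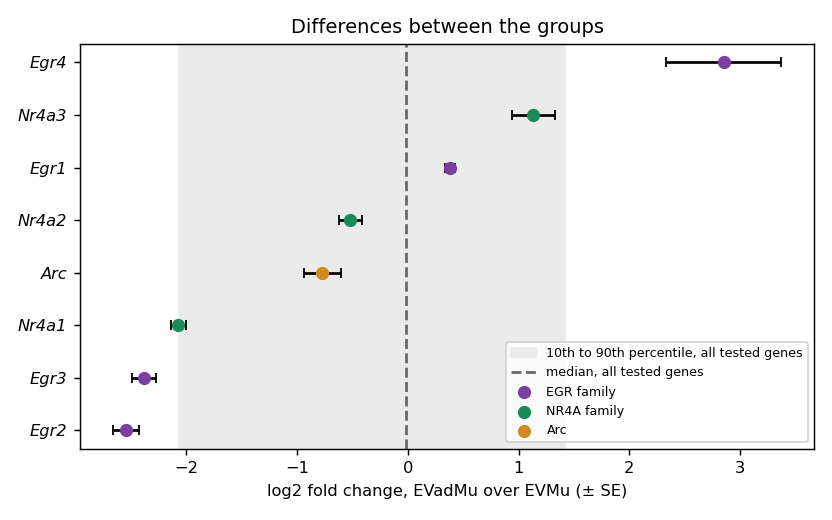
Fitted log2 fold change (EVadMu over EVMu) of the 8 tested genes with the model's SE, coloured by family, with the median (dashed line) and the 10th to 90th percentile (grey band, -2.07 to 1.42) of all tested genes. Each family has genes on either side of 0. Egr2, Egr3 and Egr4 lie outside the band, as does Nr4a1, which is only just beyond its lower edge.

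In order of log2 fold change the genes ran Egr2, Egr3, Nr4a1, Arc, Nr4a2, Egr1, Nr4a3 and Egr4. Of the 7 neighbouring pairs in this order, the within-library count ratios overlapped between the groups only for Egr3 with Egr2 and for Nr4a2 with Arc. The overlap of Egr3 with Egr2 and the gap of Nr4a1 with Egr3 were both narrow. The order was set from these same counts, so the ratios describe it and do not test it. No transcript lengths were used, so levels are not ranked between genes.

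The makeup of each family was measured within each library, as the share of the family's counts on each gene, which does not depend on the scaling between libraries. Egr1 took 91.6 ± 0.43% of EGR counts in EVadMu and 63.4 ± 1.33% in EVMu (SD, n = 3 each). Egr2 took 3.13 ± 0.098% in EVadMu and 16.4 ± 0.42% in EVMu, and Egr3 took 4.29 ± 0.23% in EVadMu and 20.1 ± 1.01% in EVMu. The remainder beside Egr1 was thus small in EVadMu. Egr4 was at 1.01 ± 0.31% in EVadMu and 0.118 ± 0.057% in EVMu. The summed level of the family was 137 ± 1.43 CPM in EVadMu and 152 ± 3.06 CPM in EVMu, and the libraries of the groups did not overlap.

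The NR4A family was spread more evenly over its genes in EVadMu. Nr4a1 took 47.9 ± 0.44% of NR4A counts in EVadMu and 77.9 ± 2.02% in EVMu. Nr4a2 took 34.0 ± 2.66% in EVadMu and 18.9 ± 1.38% in EVMu, so its share was higher in EVadMu although its level was lower. Nr4a3 took 18.1 ± 2.94% in EVadMu and 3.19 ± 0.77% in EVMu. The summed level was 38.6 ± 0.22 CPM in EVadMu and 99.8 ± 4.72 CPM in EVMu. It rests on as few as 608 counts in a library, so the small SD in EVadMu is not read as precision. Counts also grow with transcript length, so a share is of counts and not of molecules.

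**Figure D3:**
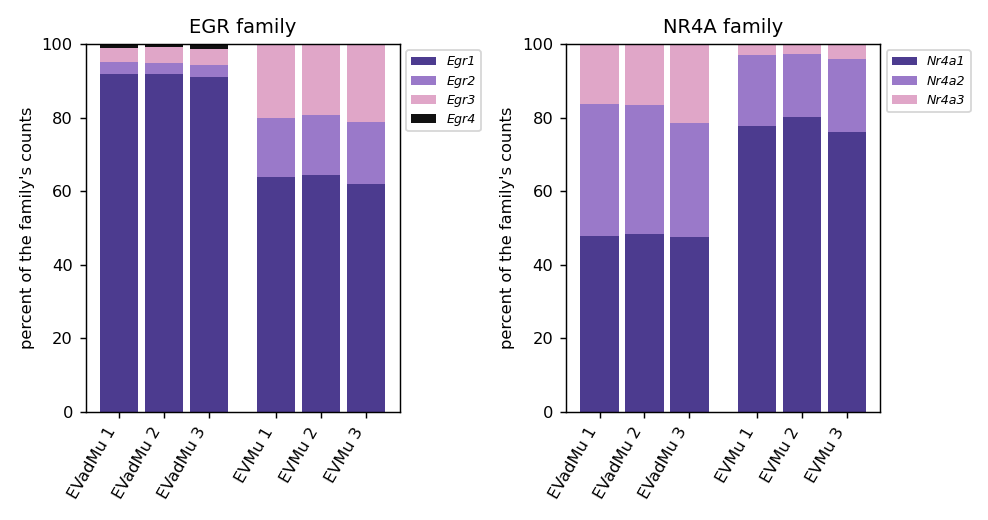
Share of the EGR counts (left) and of the NR4A counts (right) on each gene, in percent, with 1 stacked bar per library and the EVadMu libraries left of the EVMu libraries. The Egr1 segment is 91.1 to 91.9% in EVadMu and 61.9 to 64.4% in EVMu, and the Nr4a1 segment is 47.5 to 48.4% in EVadMu and 76.0 to 80.0% in EVMu.

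Partners and repressors of the EGR and NR4A proteins moved both ways, with 5 of 13 tested genes higher (39.2% of all tested genes) and 7 lower (40.8%), at a median log2 fold change of -0.16. This list and those below were written with earlier results of these data known. Their counts and medians are descriptions, and no enrichment is read from them. The corepressor genes Nab1 and Nab2, whose proteins bind EGR factors and repress them, had 76.1 and 29.1 CPM in EVadMu and 55.5 and 32.6 CPM in EVMu. Nab1 rose by 0.46 on the log2 scale, and Nab2 at -0.16 did not pass. The retinoid X receptors, which pair with NR4A1 and NR4A2, diverged. Rxrg fell to 1.92 ± 0.37 CPM in EVadMu, against 17.8 ± 1.70 CPM in EVMu, while Rxrb rose to 110 ± 1.08 CPM in EVadMu, against 42.9 ± 1.28 CPM in EVMu. Rxra was lower by less, at 49.9 ± 1.34 CPM in EVadMu, against 63.1 ± 4.83 CPM in EVMu. The factor gene Cebpb, itself an early-response gene, rose to 156 ± 4.90 CPM in EVadMu, against 19.0 ± 3.02 CPM in EVMu. For NPAS4, the dimer partner genes Arnt and Arnt2 had log2 fold changes of 0.45 and -0.58, and 2 of 7 tested PAS factor genes were higher (39.2% of all tested genes) and 2 lower (40.8%), at a median of -0.46.

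Among the factors that switch these genes on, the CREB group had 6 of 11 genes higher (39.2% of all tested genes) and 3 lower (40.8%), at a median of 0.30. Creb1 itself was at 71.7 ± 3.11 CPM in EVadMu and 69.1 ± 3.59 CPM in EVMu and did not pass. The related factor gene Atf1 and the coactivator gene Crtc2 rose by 1.64 and 1.41 on the log2 scale. Creb3l2 and Creb3l1, membrane-bound factors of the secretory pathway, had log2 fold changes of -2.62 and -1.31. In the SRF group, 4 of 11 genes were higher (39.2% of all tested genes) and 5 lower (40.8%), at a median of -0.15. Srf rose by 0.30, while the ternary complex factor gene Elk3 fell to 7.98 ± 0.52 CPM in EVadMu, against 35.2 ± 2.73 CPM in EVMu. The actin-sensing coactivator genes Mrtfa and Mrtfb stood at -1.13 and -1.17. Of the MEF2 genes in this list, Mef2d rose to 154 ± 5.06 CPM in EVadMu, against 90.6 ± 2.28 CPM in EVMu. Mef2b rose by 1.37 on the log2 scale, and Mef2c had a log2 fold change of -1.21. Elk1 (-0.15) did not pass.

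Kinases and phosphatases that carry calcium, cAMP and growth factor signals to these factors were mostly lower, with 18 of 27 lower (40.8% of all tested genes) and 6 higher (39.2%), at a median of -0.34. The calcium/calmodulin kinase gene Camk2a fell to 5.18 ± 0.60 CPM in EVadMu, against 53.6 ± 0.15 CPM in EVMu. Camk4, which phosphorylates CREB in the nucleus, and its activator gene Camkk2 had log2 fold changes of -1.93 and -1.59, and the RSK kinase gene Rps6ka1 had one of -1.59. The kinase genes Map2k2 and Mapk7 rose by 0.97 and 0.78. Prkacb (-0.05) and the calcineurin subunit gene Ppp3r1 (-0.01) did not pass. Pan-neuronal markers were lower alongside, for 11 of 15 genes.

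Other early-response genes were mostly higher in EVadMu. Of 50 tested, 37 were higher (39.2% of all tested genes) and 10 lower (40.8%), with a median of 1.29. As with the other lists, the choice of genes followed earlier results, so no enrichment is read from this count. Csrnp1, a nuclear factor gene induced by AXIN1, rose to 231 ± 7.08 CPM in EVadMu, against 17.2 ± 0.31 CPM in EVMu. The growth arrest gene Gadd45b rose to 201 ± 2.04 CPM in EVadMu, against 15.8 ± 0.92 CPM in EVMu, and the small MAF gene Maff rose by 3.29 on the log2 scale. Among AP-1 subunit genes, Fos fell by 0.84, while Fosb, Fosl1, Fosl2, Jun, Junb and Jund rose, Junb by 2.50 and Fosl1 by 3.37. The other lower genes of the list included Id3 at -2.58 and Ier5l at -2.02, and Ccn2 (0.07) and Klf2 (-0.19) did not pass.

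Late activity-induced genes, the effectors that follow the early factors in stimulated neurons, were mostly lower. Of 26 tested, 18 were lower (40.8% of all tested genes) and 6 higher (39.2%), with a median of -0.61. Bdnf, a neurotrophin gene and a target of NPAS4, fell to 21.3 ± 1.35 CPM in EVadMu, against 42.3 ± 0.60 CPM in EVMu. The G protein regulator gene Rgs4 fell to 49.0 ± 2.35 CPM in EVadMu, against 412 ± 6.50 CPM in EVMu, the enkephalin gene Penk had a log2 fold change of -3.85 and the neuronal pentraxin gene Nptx1 one of -2.53. The activin subunit gene Inhba and the receptor gene Gpr3 rose by 0.68 and 0.71, and Syt4 (0.06) did not pass. Sensory neuron markers were lower in the same libraries, for 13 of 14 genes, and Tac1 is in both lists.

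Postsynaptic genes linked to ARC were lower for 15 of 24 tested (40.8% of all tested genes) and higher for 6 (39.2%), at a median of -0.89. The scaffold genes Shank2, Shank3 and Homer2 had log2 fold changes of -2.89, -2.18 and -2.03, and the AMPA receptor subunit gene Gria1 fell to 2.87 ± 0.71 CPM in EVadMu, against 12.2 ± 0.21 CPM in EVMu. Rnf216, which encodes a ubiquitin ligase for ARC, rose by 0.90. Arc itself, at -0.77, lay near the median of this list.

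Genes linked to EGR2 in myelinating Schwann cells were lower for 16 of 18 (40.8% of all tested genes) and higher for 1 (39.2%), at a median of -1.64. The myelin genes Cnp, Mag and Mal had log2 fold changes of -5.00, -4.34 and -4.25, all beyond the -2.54 of Egr2. Cnp, which encodes a myelin-associated phosphodiesterase, fell to 10.4 ± 1.83 CPM in EVadMu, against 332 ± 2.92 CPM in EVMu. Sox10, the glial factor that acts with EGR2, fell by 0.82, and Yy1 rose by 0.95. Glia markers, which share Sox10 and other genes with this list, were lower for 13 of 15 genes, among them Erbb3 at 11.1 ± 0.76 CPM in EVadMu and 411 ± 8.98 CPM in EVMu, while S100b was at 103 ± 7.06 CPM in EVadMu and 99.7 ± 3.63 CPM in EVMu and did not pass. The part of glial cells in the level of Egr2 was not tested.

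**Figure D4:**
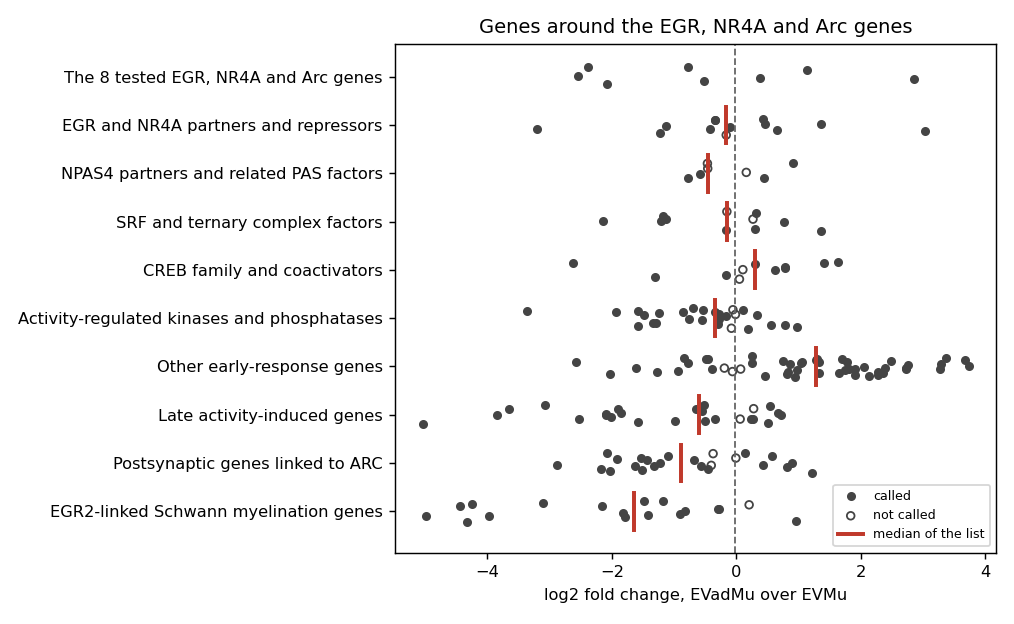
Log2 fold change (EVadMu over EVMu) of the 8 tested EGR, NR4A and Arc genes (top row) and of the tested genes of 9 lists around them, with 1 dot per gene, filled where called at an adjusted p of 0.05 and open where not. Red bars mark list medians, which run from -1.64 for the Schwann myelination genes to 1.29 for the other early-response genes, and the dashed line is the median of all tested genes.

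Genes with the most similar pattern over the 6 libraries were ranked among 13718 named genes by the root mean square difference of log2 CPM, each gene centred on its mean. Nearest to Egr1 were Gna12, Ktn1 and Tlr4 (0.013 to 0.017), and 1071 genes lay within 0.1 of it. Nearest to Egr2 were Ankrd26, Lgals9 and Dagla (0.046 to 0.049), and to Egr3 Igfbp7, Evc and Ccnd1 (0.054 to 0.056). Nr4a1 was nearest to Hspa12b, Plk4 and Tgfb3 (0.039 to 0.047), Nr4a2 to Tnks1bp1, Primpol and Kif3b (0.029 to 0.031), and Arc to Pnpt1, Ralyl and Zfp563 (0.035 to 0.058). Nr4a3 had the fewest close neighbours, with 3 genes within 0.1, namely Zfp719, Trit1 and Zfp35. With 2 groups the measure follows mainly the size of the group difference, and for genes that vary widely within groups also that spread. Nr4a3 was such a gene (SD 15.8% of the mean in EVadMu and 21.6% in EVMu). The listed genes share a similar fold change with the gene they are nearest to, and no more than that is read from the ranking. Egr4 and Npas4, with a mean below 1 CPM, were left out of it.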

How the data were processed

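Poly(A)-selected RNA of 6 libraries (EVadMu 1 to 3, EVMu 1 to 3, from the titles) was sequenced. The deposited values are whole-number read counts per gene, not normalised by the authors. Per the submitters' processing notes, HISAT2, SAMtools, featureCounts and CASAVA 1.8 were used with the mouse build mm39, whereas the cells are labelled as rat. Which species describes the cells was not tested. Settings for strand and multiple hits were not given in the sources used here. If rat reads were counted on mouse genes, levels of diverged genes would be too low.

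The tests were run with edgeR 4.0.16 in R 4.3.3 (default expression filter, minimum count 10 and minimum total 15, TMM factors, quasi-likelihood F-test, Benjamini-Hochberg threshold 0.05), limma 3.58.1 and DESeq2 1.42.0. CPM use the counts of tested genes. Errors are SD over 3 libraries or the model's SE, and intervals cover counting error only. Nothing says that the libraries came from separate cultures. Calls set the group difference against the spread between libraries, which may be technical. Squared differences between replicate pairs were on average 2.09 to 3.10 times the variance from counting alone. The genes and the 16 lists were chosen with earlier results of these data known. Named list genes were the largest called differences (up to 4 a list, mean CPM of at least 1), up to 2 against the list's direction and up to 2 uncalled, and a few of these are left unreported. Other list genes (Nab1, Rxra, Srf, Mrtfa, the AP-1 genes, Bdnf, Sox10) were named after their values were seen. Rat promoter windows come from RefSeq (GRCr8) and were searched on both strands. Alternatives were other scaling factors, no or a stricter filter, DESeq2, limma-voom, a replicate block, omission of each library and, added after seeing the data, only genes whose names are in the rat table.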

Additional observations from a re-analysis of the deposited data

How the results depend on the processing

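The direction and call of all 8 tested genes held under each alternative run, except that the stricter filter removed Egr4 and left 7 genes. Over the alternatives the log2 fold change ran from 0.27 to 0.41 for Egr1, -2.65 to -2.50 for Egr2, -2.49 to -2.32 for Egr3 and 2.61 to 3.33 for Egr4. It ran from -2.18 to -2.02 for Nr4a1, -0.63 to -0.44 for Nr4a2, 1.00 to 1.32 for Nr4a3 and -0.88 to -0.67 for Arc. Without scaling factors the median of all tested genes was -0.13, and 6030 genes were called higher and 7575 lower, against 6658 and 6939 with TMM factors. With no filter Npas4 was tested and not called (log2 fold change -0.38 ± 0.67). Total counts of called genes, both directions together, stayed within 1.5 times the reported count in the whole table and in each list. Among counts in a single direction, higher pan-neuronal markers numbered 1 in place of 2 without scaling factors. Higher PAS factor genes numbered 1 in place of 2 with rat-table names, and higher fibroblast markers 0 in place of 1 without scaling factors, with upper-quartile factors, with no filter or without EVMu replicate 1. Small differences in the lists moved with the scaling: without scaling factors 4 of the 27 kinase and phosphatase genes were higher and 21 lower.

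Same-numbered libraries did not deviate together (correlations of -0.0096 to -0.0037 over genes), so the numbers were not taken as pairs. With the replicate block 13409 genes were called, and the 8 genes kept their calls. Depth and the spread between libraries limit Npas4, and depth limits the EVMu level of Egr4.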
